A study of Mus musculus with 9 samples.

Results

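The 10 genes described here are Nfe2l2, Keap1, Nqo1, Hmox1, Gclc, Gclm, Txnrd1, Srxn1, Slc7a11 and Osgin1, which encode the transcription factor Nrf2, its inhibitor Keap1 and 8 of the best known genes that Nrf2 switches on. They were found on the array through the RefSeq accession that each probe carries. All 10 had a probe, 11 probes in all because Hmox1 had 2, out of 55681 distinct probes, of which 27656 could be named and gave 20972 gene symbols. Expression was measured in total liver RNA of male mice at 20 weeks of age with 9 one-colour Agilent arrays, 3 per group and 1 array per mouse. STAM mice, a model of diabetes with steatohepatitis that proceeds to liver cancer, are C57BL/6J males that received low-dose streptozotocin, a toxin of insulin-secreting beta cells, just after birth and ate a fat-rich diet later. In the STAM-NON group such mice went untreated, and in the STAM-INS group they were injected subcutaneously with insulin, for which the study's methods name insulin glargine and insulin degludec at this age without saying which these mice received. Normal mice, labelled only as normal, are controls outside the STAM protocol of streptozotocin and fat-rich diet, so that STAM against Normal compares both at once. The comparisons asked how these genes differed between STAM and Normal liver, and whether insulin treatment moved them.

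Nrf2 is made all the time but is normally short-lived, because Keap1 binds it and hands it to a Cul3 ubiquitin ligase for destruction. Oxidants and electrophiles modify cysteines of Keap1, Nrf2 then escapes, pairs with a small Maf protein and binds antioxidant response elements in the promoters and enhancers of its target genes. The targets make glutathione, reduce thioredoxin, detoxify quinones and break down heme, and in the liver, where fat and drugs are oxidised, they form one of the main defences against oxidative damage. Much of this control acts on Nrf2 protein, which an expression array does not measure.

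Values are given as centred log2 signal, that is log2 of a probe's processed signal with the 75th percentile spot of its own array set to 0, so that a difference of 1 is a doubling. Levels of different probes cannot be set against each other on this scale, and only the same probe is compared between mice. Groups were compared with limma, with p-values adjusted over the 26278 probes tested and a threshold of 0.05. Of the 10 genes, 9 passed the filter for testing and were well above background on all 9 arrays, and Slc7a11 did not pass. The tissue label held in all 3 groups, as the 7 hepatocyte markers with a probe averaged 8.15 to 8.73 on every array, among them albumin (Alb), at 10.15 to 10.67. The share of spots well above background was 46.2% to 65% and stood apart, at 59.3% to 65%, on 3 STAM arrays (STAM-NON 1 and 3 and STAM-INS 1). All Normal arrays were on 1 slide and all STAM arrays on another, so that slide and the STAM condition cannot be told apart, whereas STAM-INS and STAM-NON shared a slide. Because whole liver was used, a change in the number of cells of a type cannot be told apart from a change in RNA per cell.

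Of the 9 genes tested, 1 passed the threshold in STAM-NON against Normal liver, where 16.1% of all tested probes passed (6.3% higher and 9.76% lower). That gene was Srxn1, which was 1.94-fold higher in STAM-NON and 2.12-fold higher in STAM-INS liver. No member passed in STAM-INS against STAM-NON liver. The members did not move one way: the regulators Nfe2l2 and Keap1 and the targets Srxn1, Nqo1 and Hmox1 had mean differences above 0 in STAM-NON against Normal liver, and the glutathione genes Gclc and Gclm, Txnrd1 and Osgin1 had mean differences below 0, of which those of Txnrd1 and Osgin1 turned above 0 with the arrays centred on spike-in controls or quantile normalised. The groups did not overlap for 5 of the 9 genes, 3 higher and 2 lower in STAM-NON, against 41.2% of all tested probes (13.2% higher and 28% lower). At an unadjusted p under 0.05 there were 6 of 9, against 35.8% of all tested probes. The median difference of the 9 genes was 0.28, and that of all tested probes was -0.13.

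**Figure D1:**
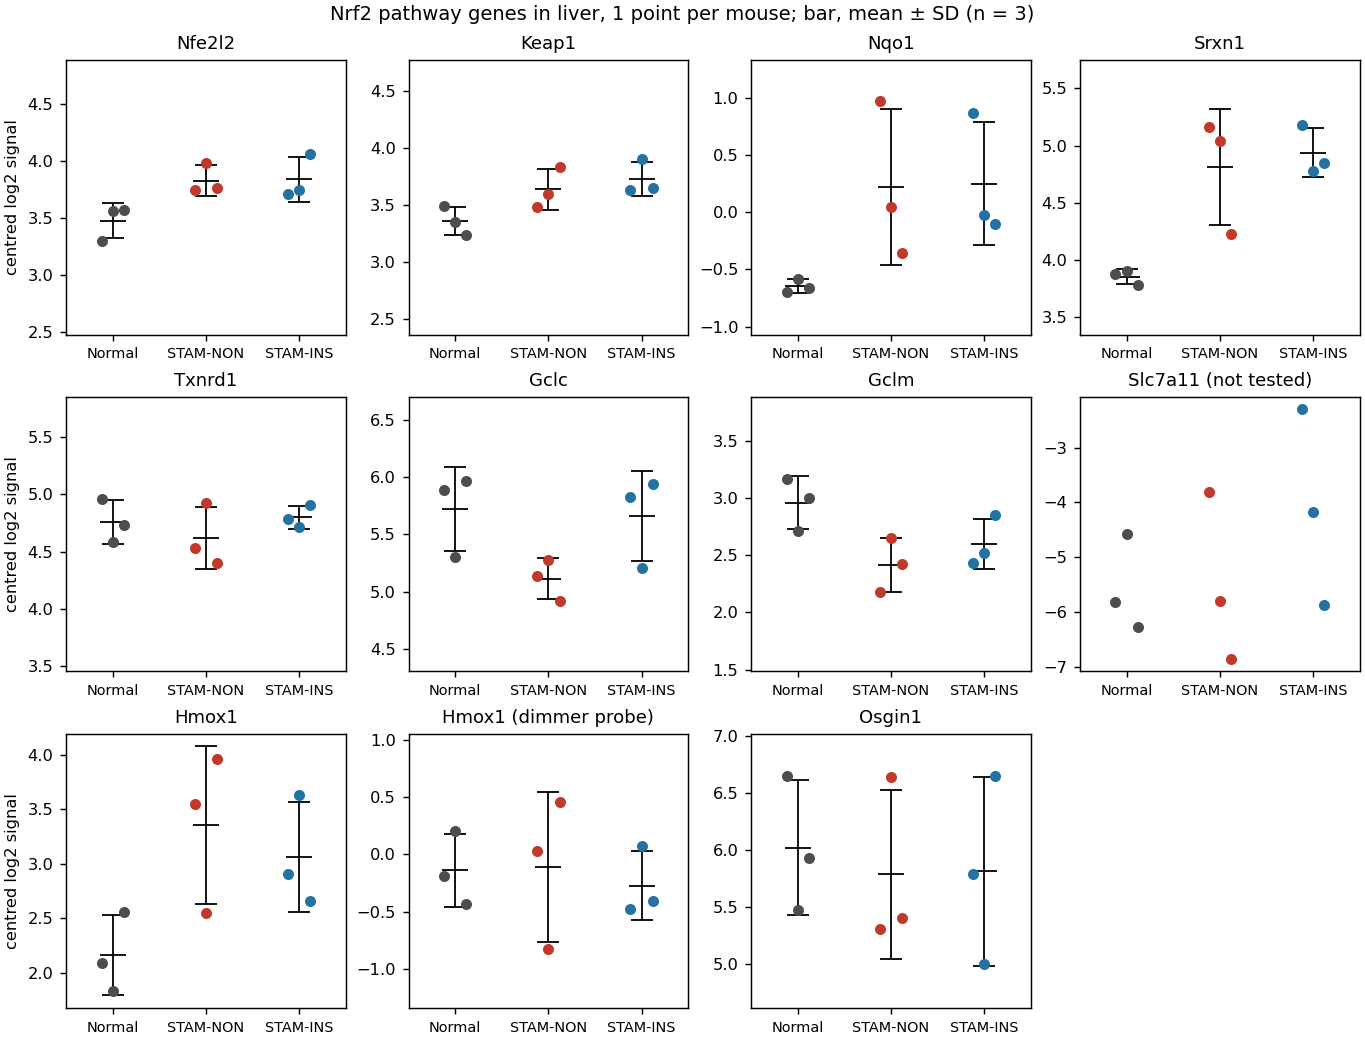
Centred log2 signal (vertical axis, log2 scale, own range in each panel) of the 11 probes of the 10 genes in Normal, STAM-NON and STAM-INS liver. Each point is 1 mouse and bars show the mean ± SD of 3 mice, except for Slc7a11, which was too dim to be tested and has points only. For Srxn1 all STAM mice lie above all Normal mice, and for Osgin1 and Txnrd1 the 3 groups lie over each other.

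Sulfiredoxin, encoded by Srxn1, repairs peroxiredoxins that have been inactivated by excess peroxide. Its centred log2 signal was 5.16, 5.04 and 4.23 in STAM-NON mice 1 to 3, 5.18, 4.78 and 4.85 in STAM-INS mice 1 to 3, and 3.88, 3.90 and 3.78 in Normal mice 1 to 3. Every STAM mouse lay above every Normal mouse, STAM-NON 3 was the lowest STAM mouse, and the treated and untreated STAM mice overlapped. Srxn1 rose by 0.96 on the log2 scale in STAM-NON against Normal liver (SE 0.24, 95% interval 0.41 to 1.5, limma adjusted p = 0.0328) and by 1.09 in STAM-INS against Normal liver (SE 0.24, 95% interval 0.54 to 1.63, limma adjusted p = 0.0236). Both calls lie close to the threshold: over 25 other settings the difference stayed above 0 in each, at 0.60 to 1.27 and 0.92 to 1.26, while the call was lost in 12 and in 9 of them. Without the 3 arrays with the most spots above background the STAM-NON difference for Srxn1 was 1.19, but that setting leaves STAM-NON 2 as the only mouse of its group here and wherever it is given below.

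The promoter sequence that RefSeq (assembly GRCm38.p6) gives upstream of the start site was searched for the core of the antioxidant response element, which in its shortest form reads TGACNNNGC, and for the form TGAGNNNGC, which was added after the promoters had been seen. Both strands were searched over 250 bases upstream. Entries were found for 8 of the 10 genes (10 promoters), all but Hmox1 and Gclc. The first form was present in 10.2% of all 32851 promoters, the second in 14.4% and either in 23%, so a match alone is common. Srxn1 held the second form at 2 places, on the + strand at -45 to -37 from the start (chr2:152105463-152105503) and on the - strand at -158 to -150 (chr2:152105350-152105390). The stretches below are shown because Srxn1 passed the test in both comparisons with Normal liver, whereas Gclm (chr3:122245407-122245447, - strand match) and Osgin1 (chr8:119437032-119437072, - strand match), which also hold a match, did not. Capitals mark the 9 matching bases, each stretch is written along the + strand of the genome, on which these 3 genes lie, and a - strand match therefore reads as its reverse complement.
Srxn1 near site: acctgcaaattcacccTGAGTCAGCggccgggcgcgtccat
Srxn1 far site: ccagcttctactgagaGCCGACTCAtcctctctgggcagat
Gclm site: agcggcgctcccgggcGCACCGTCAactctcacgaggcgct
Osgin1 site: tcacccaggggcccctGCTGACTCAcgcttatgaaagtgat
The near site of Srxn1 and the site of Osgin1 overlap a match to the AP-1 core TGANTCA, which was present in 6.75% of all promoters and which Srxn1 held once more, from -102. One of the forms was also present upstream of Nfe2l2, Slc7a11 and 1 of the 3 Txnrd1 promoters, so that 6 of the 8 genes with an entry held a match, against 25.7% of all 27025 genes in the table. With the first form alone it was 3 of 8 (Gclm, Nfe2l2 and Txnrd1) against 3112 of the 27025 genes, since Srxn1, Osgin1 and Slc7a11 match only through the form that was added. Nqo1 and Keap1 held none in this window. Genes with a match had differences in STAM-NON against Normal liver of either sign, from -0.54 for Gclm to 0.96 for Srxn1.

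The 2 regulators were slightly higher in STAM liver without passing the test. Nfe2l2, the gene of Nrf2, had a centred log2 signal of 3.74, 3.98 and 3.76 in STAM-NON mice, 3.71, 3.74 and 4.06 in STAM-INS mice and 3.30, 3.56 and 3.57 in Normal mice. All 6 STAM mice lay above all 3 Normal mice, and the STAM groups overlapped. The difference was 0.35 in STAM-NON against Normal (95% interval 0.02 to 0.68, limma adjusted p = 0.122) and 0.36 in STAM-INS against Normal (95% interval 0.03 to 0.69, limma adjusted p = 0.124). Scaling decided on which side of the threshold Nfe2l2 lay in STAM-NON, as it passed with the arrays centred on spike-in controls (0.66, limma adjusted p = 0.0255) or quantile normalised (0.55, limma adjusted p = 0.0312). Keap1, which holds Nrf2 down, had 3.48, 3.60 and 3.83 in STAM-NON mice, 3.63, 3.90 and 3.65 in STAM-INS mice and 3.49, 3.35 and 3.24 in Normal mice. For Keap1 the STAM-INS mice lay above all Normal mice, whereas STAM-NON 1 was just below Normal 1. Its difference from Normal was 0.28 in STAM-NON (95% interval -0.04 to 0.60, limma adjusted p = 0.182) and 0.37 in STAM-INS (95% interval 0.05 to 0.68, limma adjusted p = 0.107).

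The genes of glutathione synthesis had the lowest differences in STAM-NON against Normal liver of the 9 genes. Gclc encodes the catalytic subunit of glutamate-cysteine ligase, the rate-limiting enzyme of glutathione synthesis, and Gclm its modifier subunit. Gclc had a centred log2 signal of 5.14, 5.28 and 4.92 in STAM-NON mice, 5.83, 5.21 and 5.94 in STAM-INS mice and 5.89, 5.30 and 5.97 in Normal mice. All STAM-NON mice lay below all Normal mice, Normal 2 only just above the highest of them, and the STAM-INS mice spanned nearly the Normal range. The difference was -0.61 in STAM-NON against Normal (95% interval -1.16 to -0.06, limma adjusted p = 0.112) and -0.06 in STAM-INS against Normal (95% interval -0.61 to 0.49, limma adjusted p = 0.884). Gclm had 2.18, 2.65 and 2.42 in STAM-NON mice, 2.43, 2.52 and 2.85 in STAM-INS mice and 3.17, 2.71 and 3.0 in Normal mice. Here too the STAM-NON mice lay below all Normal mice, while the STAM-INS mice overlapped both groups. Its difference from Normal was -0.54 in STAM-NON (95% interval -0.96 to -0.12, limma adjusted p = 0.0747) and -0.36 in STAM-INS (95% interval -0.78 to 0.06, limma adjusted p = 0.21).

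Slc7a11 encodes the cystine importer xCT, which supplies cysteine for glutathione. Its probe was well above background on 1 of 3 STAM-NON arrays, on 1 of 3 STAM-INS arrays and on 0 of 3 Normal arrays, with a centred log2 signal of -6.85 to -2.30 over the 9 arrays. The arrays with a signal were STAM-NON 1 at -3.81 and STAM-INS 1 at -2.30, which are among the 3 arrays with the most spots well above background. The third of these arrays, STAM-NON 3, had the lowest value of the 9, at -6.85. The part of the number of spots above background in the Slc7a11 signal was not tested. No group could be given a level for Slc7a11.

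Thioredoxin reductase 1, encoded by Txnrd1, keeps thioredoxin reduced in the cytosol. Its centred log2 signal was 4.53, 4.92 and 4.40 in STAM-NON mice, 4.78, 4.71 and 4.91 in STAM-INS mice and 4.96, 4.58 and 4.73 in Normal mice, so that all 3 groups overlapped. The difference between STAM-NON and Normal was -0.14, and its 95% interval of -0.51 to 0.24 leaves out a change of 1 in either direction (limma adjusted p = 0.57). Nqo1, the quinone reductase that serves widely as a readout of Nrf2, had 0.97, 0.05 and -0.36 in STAM-NON mice, 0.87, -0.02 and -0.10 in STAM-INS mice and -0.70, -0.58 and -0.66 in Normal mice. The Normal mice lay close together (mean -0.64 ± 0.06, SD, n = 3) and below every STAM mouse, whereas the STAM-NON mice spread widely (0.22 ± 0.68, SD, n = 3). In STAM-NON and in STAM-INS the mouse numbered 1, whose array was among the 3 with the most spots above background, was the highest. The third of these arrays, STAM-NON 3, had the lowest Nqo1 signal of the STAM mice, at -0.36. The difference from Normal was 0.87 in STAM-NON (95% interval 0.05 to 1.69, limma adjusted p = 0.124) and 0.90 in STAM-INS (95% interval 0.08 to 1.72, limma adjusted p = 0.125). Without the 3 arrays with the most spots above background the STAM-NON difference for Nqo1 was 0.70, from STAM-NON 2 alone.

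Heme oxygenase 1, encoded by Hmox1, breaks heme down to biliverdin, iron and carbon monoxide, and in liver it is made by macrophages that take up old red cells as well as by stressed hepatocytes. The brighter of its 2 probes had a centred log2 signal of 3.55, 2.55 and 3.96 in STAM-NON mice, 2.90, 3.63 and 2.66 in STAM-INS mice and 2.09, 1.83 and 2.56 in Normal mice. All STAM-INS mice lay above all Normal mice, whereas STAM-NON 2 lay just below Normal 3. Its mean difference from Normal was the largest of the 9 genes, 1.19 in STAM-NON (95% interval 0.30 to 2.09, limma adjusted p = 0.0695), and was 0.90 in STAM-INS (95% interval 0.01 to 1.80, limma adjusted p = 0.15). The value in STAM-NON moved to 1.59 without STAM-NON 2 and then passed (limma adjusted p = 0.0243), and it was 0.39 without the 3 arrays with the most spots above background, which leaves STAM-NON 2 alone in its group. The dimmer probe did not show this difference: it had 0.03, -0.83 and 0.46 in STAM-NON mice, -0.48, 0.07 and -0.41 in STAM-INS mice and -0.19, 0.20 and -0.43 in Normal mice. The 3 groups overlapped on it, and its difference was 0.02 in STAM-NON against Normal (95% interval -0.72 to 0.77, limma adjusted p = 0.966).

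Macrophage markers were also higher in STAM liver. Of the 11 markers tested, 6 were higher in STAM-NON and 4 in STAM-INS than in Normal liver and 0 lower, and in STAM-NON all 11 had a difference above 0, with a median of 1.03. Of all tested probes 6.3% were higher in STAM-NON and 5.16% in STAM-INS. Gpnmb, 1 of the 11, was well above background on 3 STAM-NON, 1 STAM-INS and 0 Normal arrays. It thus passed the filter only through STAM-NON, had the largest difference there, 4.38, and counts in the means below. The mean centred log2 signal of the 11 markers was 2.31 to 3.27 on STAM-NON arrays, 2.44 to 3.09 on STAM-INS arrays and 1.06 to 1.45 on Normal arrays. In STAM-NON liver it was 3.27, 2.31 and 3.23 in mice 1 to 3, and mouse 2 was also the lowest on both Hmox1 probes. In STAM-INS liver it was 2.52, 3.09 and 2.44, and mouse 2 was also the highest on both Hmox1 probes. Mice 1 and 3 of that group stood the other way on the dimmer probe, at -0.48 and -0.41. Normal 2, with the lowest marker mean (1.06), was lowest on the brighter probe (1.83) but the highest Normal mouse on the dimmer one (0.20). Clec4f, a marker of the liver's resident macrophages, was higher in STAM-NON liver by 0.97 (limma adjusted p = 0.042), and Trem2, a marker of lipid-associated macrophages, by 2.93 (limma adjusted p = 0.0122). The general macrophage marker Adgre1 had a difference of 0.92 that did not pass (limma adjusted p = 0.121). The part of macrophages in the Hmox1 values was not tested. The erythroid markers, of which 0 of 4 passed by limma (1 at an unadjusted p under 0.05), averaged 1.72, 3.5 and 5.0 in STAM-NON mice, 2.42, 5.07 and 4.27 in STAM-INS mice and 2.6 to 2.81 in Normal mice. The 4 did not move one way: 3 had a difference above 0 in STAM-NON against Normal liver, while that of Alas2 was -1.68. The averages were highest in STAM-NON 3 and STAM-INS 2, the mice with the highest Hmox1 values of their groups. They were lowest in STAM-NON 1 and STAM-INS 1, and the part of erythroid cells was not tested. In STAM-NON against Normal liver 3 of 4 cholangiocyte, 1 of 5 endothelial and 1 of 2 pancreas and adipose markers were also higher, against 6.3% of all tested probes. Of the 5 endothelial markers 3 had a difference above 0. The cholangiocyte marker Krt7 was well above background on only 1 of 3 Normal arrays. Of the 7 hepatocyte markers 0 were higher and 1 was lower, against 9.76% of all tested probes in the lower direction.

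**Figure D2:**
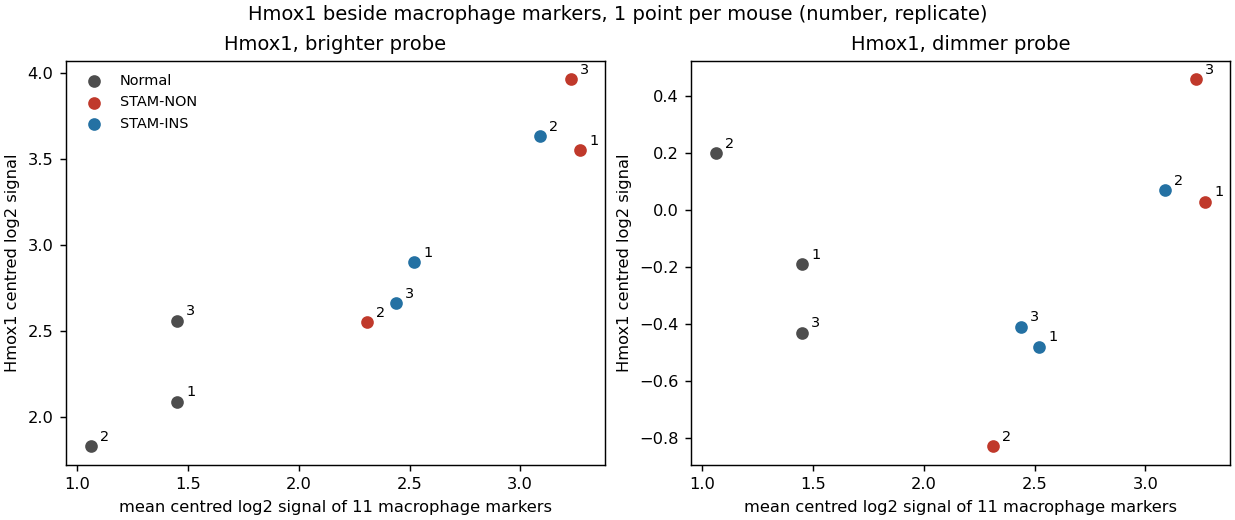
Centred log2 signal of Hmox1 (vertical axis; brighter probe left, dimmer probe right) against the mean centred log2 signal of 11 macrophage markers (horizontal axis), 1 point per mouse, numbered by replicate within its group. On the brighter probe the mice with the lowest marker means, the 3 Normal mice at 1.06 to 1.45, are among the lowest for Hmox1. On the dimmer probe the Normal mice lie among the STAM mice, while STAM-NON 2 is again the lowest and STAM-INS 2 the highest of its group. The marker mean includes Gpnmb, which was well above background on 0 Normal arrays.

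Osgin1, an oxidative stress response gene whose product restrains cell growth, varied most between mice of 1 group among the 9 genes tested. Its centred log2 signal was 5.31, 6.64 and 5.41 in STAM-NON mice, 5.79, 5.0 and 6.65 in STAM-INS mice and 6.65, 5.48 and 5.93 in Normal mice. Each group held a mouse near 6.65 and another more than 1 below it, and the 3 groups overlapped fully. The difference in STAM-NON against Normal was -0.24 with a 95% interval of -1.40 to 0.92 (limma adjusted p = 0.761), which does not leave out a value of -1.

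Insulin treatment was compared within 1 slide. None of the 9 genes passed in STAM-INS against STAM-NON liver by limma, and 0 reached 0.05 before adjustment, where 0.0913% and 8.78% of all tested probes did so. The groups overlapped for all 9, and 12.2% of all tested probes did not overlap. The gene with the largest difference was Gclc, at 0.55 with a 95% interval of 0 to 1.1 (limma adjusted p = 0.569). Srxn1 differed by 0.13 (95% interval -0.41 to 0.67), Nfe2l2 by 0.01 (95% interval -0.32 to 0.34) and Keap1 by 0.09 (95% interval -0.23 to 0.40). For Nfe2l2, Keap1, Srxn1, Txnrd1 (-0.19 to 0.55), Gclm (-0.23 to 0.60) and Nqo1 (-0.79 to 0.85) the interval leaves out a doubling or halving, whereas for Gclc, Hmox1 (-1.18 to 0.61) and Osgin1 (-1.13 to 1.19) it does not. The median difference of the 9 genes was 0.09, and that of all tested probes was 0.03.

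**Figure D3:**
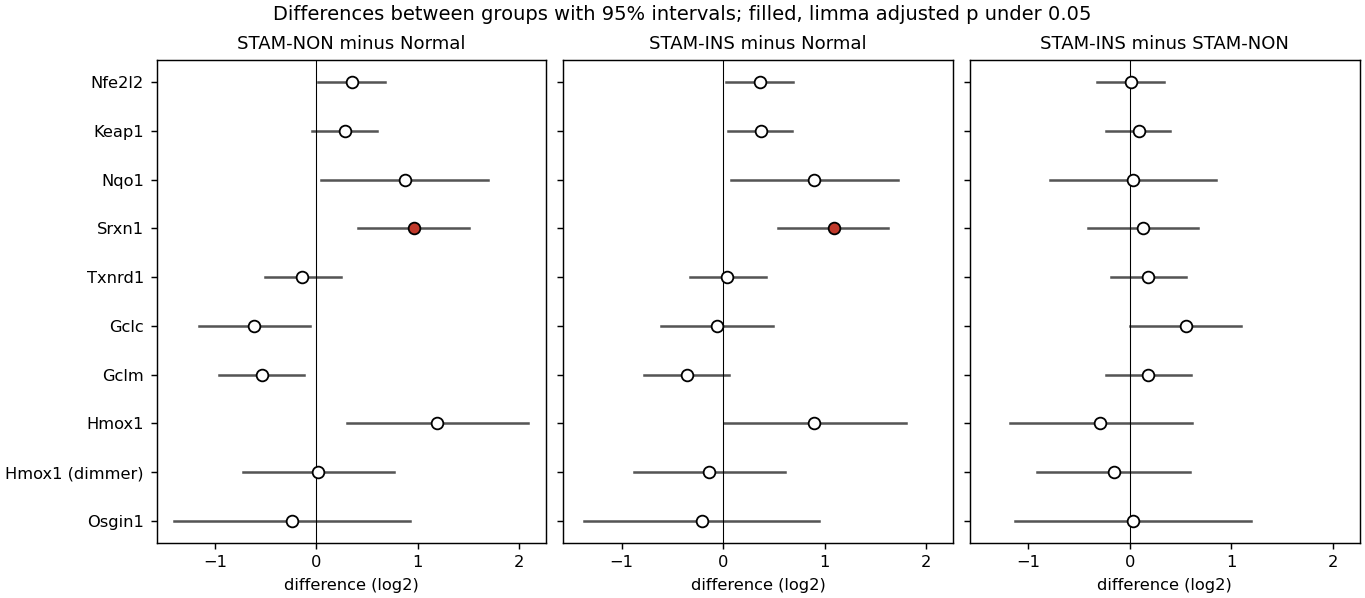
Difference in centred log2 signal (horizontal axis, log2) with its 95% interval from limma for the 9 genes tested, Hmox1 with both probes, in the 3 comparisons of groups of 3 mice. Filled points passed an adjusted p of 0.05: Srxn1 at 0.96 in STAM-NON and at 1.09 in STAM-INS against Normal liver, and no gene in STAM-INS against STAM-NON liver.

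STAM-INS against Normal liver, which uses the same Normal mice as the STAM-NON comparison, also had 1 of 9 genes past the threshold, Srxn1, where 13.9% of all tested probes passed (5.16% higher and 8.72% lower). At an unadjusted p under 0.05 there were 5, against 32.5% of all tested probes. The groups did not overlap for 5 of the 9, all 5 higher (Nfe2l2, Keap1, Nqo1, Srxn1 and Hmox1), against 44% of all tested probes and 15.1% in the higher direction. The median difference of the 9 genes was 0.36, and that of all tested probes was -0.09. The order of the group means for Srxn1 was Normal, STAM-NON and STAM-INS, with only the step from Normal wider than the spread between mice. For Gclc the order was STAM-NON, STAM-INS and Normal, with STAM-INS overlapping both other groups.

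A wider list of 57 genes of the pathway, with partners, glutathione and thioredoxin enzymes, conjugating enzymes, export pumps, NADPH enzymes and heme and iron genes, was read in the same way. Of the 53 that could be tested, 6 were higher and 3 lower in STAM-NON than in Normal liver, a share close to the 16.1% of all tested probes. The median difference was -0.24, against -0.13 over all tested probes. In STAM-INS against Normal liver 4 were higher and 4 lower, where 13.9% of all tested probes passed. The median there was -0.22, against -0.09 over all tested probes. In STAM-INS against STAM-NON liver 0 passed by limma, and 5 reached an unadjusted p under 0.05, against 8.78% of all tested probes. The calls named below in STAM-NON against Normal liver differed in how often they held over the 25 other settings, from 23 for Cbr3, Gpx2 and Asns and 22 for Sod3 to 12 for Prdx6, Nqo2 and Ddit3, 11 for Gpx3 and 8 for Cat. As for Srxn1, these counts mix settings of unlike threshold and weight. Of the calls named in STAM-INS against Normal liver, those of Bach1, Maff, Gpx2, Cbr3, G6pdx, Pgd and Asns held in all 25 and that of Atf3 in 15.

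Among the partners of Nrf2, 1 of 8 tested passed in STAM-NON against Normal liver, where 16.1% of all tested probes passed. Bach1, a repressor that competes with Nrf2 for its binding sites, had a centred log2 signal of 2.05, 2.46 and 2.06 in STAM-NON mice, 1.81, 1.79 and 1.77 in STAM-INS mice and 3.16, 2.83 and 2.91 in Normal mice. The 3 groups did not overlap, with Normal highest and STAM-INS lowest. Bach1 fell by 0.77 in STAM-NON (limma adjusted p = 0.0167) and by 1.18 in STAM-INS (limma adjusted p = 0.00365) against Normal liver, and its difference between STAM-INS and STAM-NON was -0.40 (limma adjusted p = 0.508). Maff, a small Maf protein that can pair with Nrf2, had 0.45, 0.07 and 0.32 in STAM-NON mice, -1.45, -0.84 and -1.69 in STAM-INS mice and 0.52, 0.18 and 0.65 in Normal mice. STAM-INS lay below all other mice and the other 2 groups overlapped. Maff fell by 1.78 in STAM-INS against Normal liver (limma adjusted p = 0.00421), and its difference was -1.61 in STAM-INS against STAM-NON (95% interval -2.14 to -1.08, limma adjusted p = 0.0763).

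Among the glutathione genes, 2 of 8 tested rose in STAM-NON against Normal liver, both glutathione peroxidases, which reduce peroxides with glutathione. Of all tested probes 6.3% were higher there. Gpx2, best known from the gut lining, had a centred log2 signal of 0.33, -0.39 and -0.30 in STAM-NON mice, 1.02, 0.74 and -0.03 in STAM-INS mice and -2.75, -2.43 and -3.06 in Normal mice. All STAM mice lay far above all Normal mice. Gpx2 rose by 2.63 in STAM-NON (6.18-fold, limma adjusted p = 0.00486) and by 3.33 in STAM-INS (10-fold, limma adjusted p = 0.00185). Gpx3, the secreted form, had 3.46, 0.12 and 1.89 in STAM-NON mice, 0.54, 0.49 and 2.88 in STAM-INS mice and -1.10, -1.34 and -1.98 in Normal mice. Its rise of 3.30 in STAM-NON passed (limma adjusted p = 0.0407) and its difference of 2.77 in STAM-INS did not (limma adjusted p = 0.07), and it was 1.59 in STAM-NON 2 alone, without the 3 arrays with the most spots above background.

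The largest difference of the list was that of Cbr3, a carbonyl reductase that Nrf2 is known to control. Its centred log2 signal was 4.73, 3.80 and 2.99 in STAM-NON mice, 4.71, 3.34 and 3.24 in STAM-INS mice and 0.74, -0.35 and 0.01 in Normal mice, so that every STAM mouse lay above every Normal mouse. Cbr3 rose by 3.71 in STAM-NON (13.1-fold, 95% interval 2.49 to 4.93, limma adjusted p = 0.00881) and by 3.63 in STAM-INS (12.4-fold, limma adjusted p = 0.00621). Of the 15 conjugating, carbonyl and quinone enzymes tested, Cbr3 included, 1 rose and 1 fell in STAM-NON liver, 3 had a difference above 0, and the median was -0.52. Of all tested probes 16.1% passed there, with a median of -0.13. The one that fell was the carboxylesterase Ces1g, by 1.17 (limma adjusted p = 0.0209). The glutathione transferases, which are abundant in hepatocytes, lay below 0 on the brightest probe of each without passing, for example Gstm1 at -0.52 (limma adjusted p = 0.0551) and Gsta3 at -0.48 (limma adjusted p = 0.111). A second Gstm1 probe did pass, at -0.72 (limma adjusted p = 0.0427). The probes of Gstm3 disagreed, with -0.42 on the brighter and 0.58 on the dimmer in STAM-NON (limma adjusted p = 0.0562 and 0.143), and the dimmer passed as higher in STAM-INS, at 0.98 (limma adjusted p = 0.0411).

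Both NADPH-producing enzymes of the oxidative pentose phosphate pathway, G6pdx and Pgd, rose in STAM liver. G6pdx had a centred log2 signal of 1.81, 0.75 and 1.86 in STAM-NON mice, 1.96, 1.94 and 2.06 in STAM-INS mice and 0.16, 0.09 and 0.16 in Normal mice. It rose by 1.33 in STAM-NON (limma adjusted p = 0.019) and by 1.85 in STAM-INS (limma adjusted p = 0.00584), and the value was 0.61 in STAM-NON 2 alone, without the 3 arrays with the most spots above background. Pgd had 3.50, 3.08 and 3.37 in STAM-NON mice, 3.48, 3.80 and 3.12 in STAM-INS mice and 2.15, 2.16 and 2.34 in Normal mice. It rose by 1.1 (limma adjusted p = 0.0133) and 1.25 (limma adjusted p = 0.00679). The other 4 NADPH genes tested did not pass in either comparison with Normal liver.

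The remaining groups are given for STAM-NON against Normal liver, where 16.1% of all tested probes passed. The export pump Abcc1 rose by 1.19 (limma adjusted p = 0.0298), 1 of 4 pumps tested, and its value was 0.60 in STAM-NON 2 alone, without the 3 arrays with the most spots above background. Prdx6, a peroxiredoxin, fell by 0.60 on its brightest probe (limma adjusted p = 0.0263), 1 of 6 thioredoxin and peroxiredoxin genes. Of its other 3 probes, at -0.58, -0.55 and -0.45, the last did not pass (limma adjusted p = 0.173). None of the 6 heme and iron genes tested passed by limma, with 2 at an unadjusted p under 0.05 and all 6 below 0, from -0.51 for the iron exporter Slc40a1 to -0.03.

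Related lists outside the Nrf2 list were read for comparison in STAM-NON against Normal liver, where 16.1% of all tested probes passed (6.3% higher and 9.76% lower). Among 6 other antioxidant enzymes, the extracellular superoxide dismutase Sod3 rose by 1.34 (limma adjusted p = 0.00757), whereas catalase (Cat) fell by 0.89 (limma adjusted p = 0.0419) and the quinone reductase Nqo2 fell by 0.69 (limma adjusted p = 0.0252). Nqo2 had 4.2, 4.59 and 4.11 in STAM-NON mice and 4.93, 4.63 and 4.89 in STAM-INS mice, without overlap, and the difference of 0.51 did not pass (limma adjusted p = 0.473). Of 8 genes of the Atf4 branch, which answers amino acid shortage and protein folding stress and shares some targets with Nrf2, 3 rose. These were Asns, asparagine synthetase, by 2.54 (limma adjusted p = 0.00818), the stress transcription factor Atf3 by 1.98 (limma adjusted p = 0.0217) and Ddit3 by 1.47 (limma adjusted p = 0.0379). In STAM-INS against Normal liver Asns rose by 2.81 (limma adjusted p = 0.00381) and Atf3 by 1.64 (limma adjusted p = 0.0364), while Ddit3 had a difference of 0.91 that did not pass (limma adjusted p = 0.143).

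**Figure D4:**
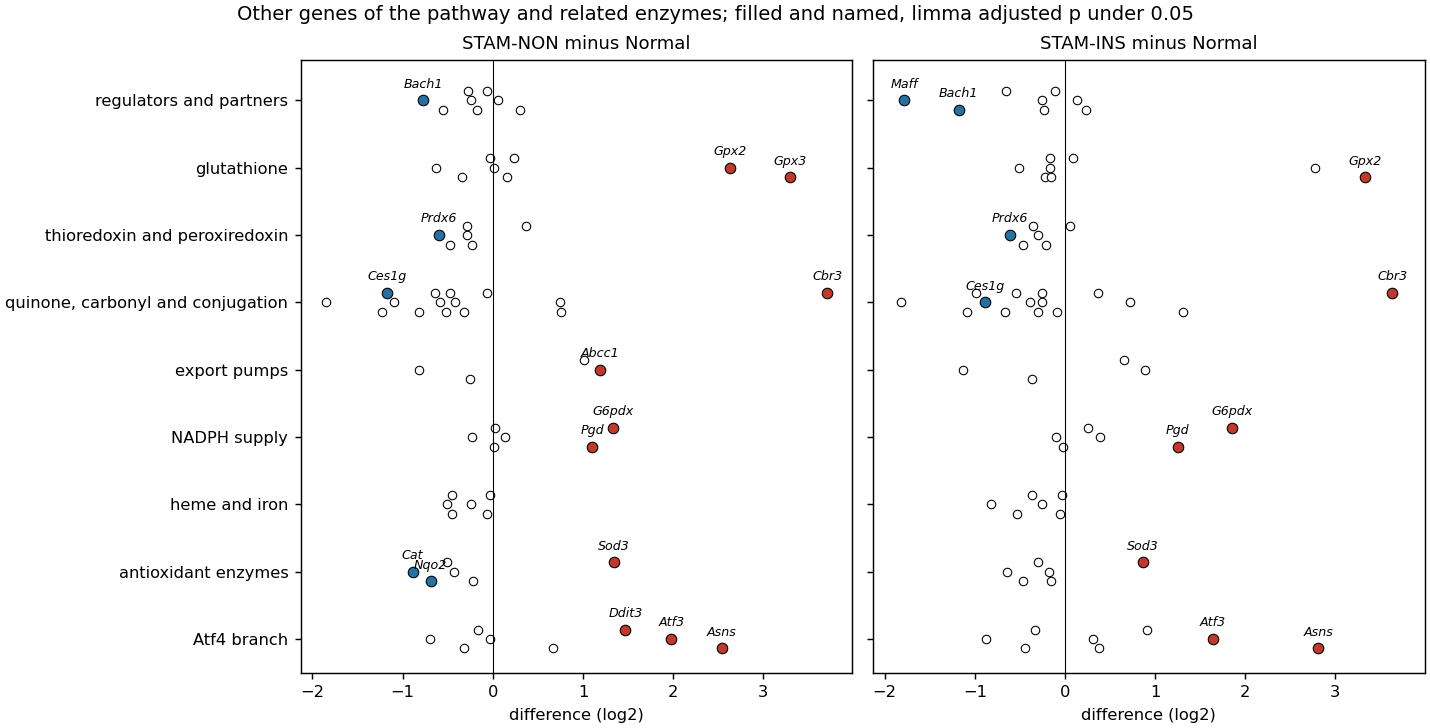
Difference in centred log2 signal (horizontal axis, log2) of STAM-NON and of STAM-INS against Normal liver for the other genes of the pathway and 2 related lists, by role, 1 point per gene tested. Filled and named points passed a limma adjusted p of 0.05, red higher and blue lower; Cbr3 lies farthest to the right in both panels, at 3.71 and 3.63.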

How the data were processed

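The authors deposited Agilent Feature Extraction 11.5.1.1 output with spot intensity on a linear scale after background subtraction. Per the file headers it was not normalised between arrays, and the methods name no test for the arrays in particular, so the unpaired t-test they name for 2 groups in general was run as an alternative. The RNA kit differs between the labels and the methods. Spots flagged as outliers (161 to 217 per array) and control spots were left out, spots of 1 probe were averaged, and no spot was saturated. Testing a probe required 0.5 or more of its spots to be flagged as well above background on each of the 3 arrays of some group. The fit used lmFit and eBayes of limma 3.58.1 (R 4.3.3) over all 9 arrays, leaving 6 residual degrees of freedom, with Benjamini-Hochberg adjustment. The number of arrays limits the precision. Probes were named through RefSeq (GRCm38.p6) because the array was designed on an older build, and the brightest probe spoke for a gene. Named list genes are those past the threshold in any comparison, at most 4 per role group, plus the gene of largest difference where that one did not pass. Gstm1, Gstm3 and Gsta3 were named after their values were seen. Members and lists were chosen with earlier results of these data known. Of the listed genes, 4 had no matched probe. On simulated data with 200 probes among 26278 changed by 2 on the log2 scale, more than any member differed, 87% were recovered in STAM-NON against Normal and 81.5% in STAM-INS against STAM-NON. Replicate numbers did not pair the mice. Normexp used the median signal. Of the alternatives, 24 were planned and 1 was added after seeing the data.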

Additional observations from a re-analysis of the deposited data

Results flagged for a closer look

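Slc7a11, Ggt1 and Nfe2l3 could not be tested, because no group had them well above background on all 3 arrays, but each had a signal on STAM arrays and on 0 Normal arrays. For Slc7a11 such a signal was seen on 2 STAM arrays, 1 in each STAM group. Ggt1, an enzyme that recycles extracellular glutathione, was so on 3 STAM arrays, 2 of STAM-NON and 1 of STAM-INS. Nfe2l3, a relative of Nrf2, was so on 1 STAM-NON array. On STAM-NON 1, STAM-NON 3 and STAM-INS 1 the lowest signal called well above background was -4.81, -4.8 and -4.96. On the Normal arrays it was -4.09 to -3.68. Nfe2l3 on STAM-NON 3 (-4.48) and Ggt1 on STAM-INS 1 (-4.45) lay below these Normal limits, and Slc7a11 on STAM-NON 1 (-3.81) between them. Ggt1 on STAM-NON 1 and 2 (-3.23 and -3.53) and Slc7a11 on STAM-INS 1 (-2.30) lay above them. The differences in detection, and the part of these limits in them, were not tested.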

How the results depend on the processing

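Neither arrays nor labels separate the slide from the STAM condition, so a slide block could not be fitted. No member passed in STAM-INS against STAM-NON liver under any of the 25 alternatives. In STAM-NON against Normal liver, where 1 member passed, 3 passed with normexp or centring on E1A spike-in controls, 2 with the percentile over probes detected on all arrays or quantile normalisation, and 0 with median centring, no filter on dim probes, only the 2 groups compared, slide row as a block or the methods' t-test after Benjamini-Hochberg (3 at its unadjusted threshold). In STAM-INS against Normal liver, where 1 passed, 2 passed with normexp, the percentile over detected probes, quantile normalisation or without the 3 arrays with the most detected spots, 0 with median centring, no filter or the slide row block, and 3 by the methods' t-test unadjusted. Leaving out each replicate in turn gave 0 to 1 members in both comparisons and 0 in STAM-INS against STAM-NON. The call on Srxn1 in STAM-NON against Normal was lost without STAM-NON 1 or 2, STAM-INS 2 or 3 or any Normal array (limma adjusted p 0.0514 to 0.0958), and in STAM-INS against Normal without any STAM-INS or any Normal array (0.0582 to 0.0785).

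Of the wider list, 9 genes passed in STAM-NON against Normal liver, and this became 16 with normexp, 2 with no filter, 15 with a trended and robust fit, 0 with the slide row block, 0 by the methods' t-test after Benjamini-Hochberg, 16 by it unadjusted and 3 without the 3 arrays with the most detected spots. Leaving out each replicate gave 3 to 20. In STAM-INS against Normal liver the 8 became 15 with only the 2 groups compared and 25 by the unadjusted t-test, and 6 to 12 with replicates left out. In STAM-INS against STAM-NON liver the 0 became 1 with the trended and robust fit, 5 by the unadjusted t-test and 1 without the 3 arrays, and stayed 0 with replicates left out. The slide row block left 15 of all tested probes past the threshold in STAM-NON against Normal liver, where row and group coincide fully: the STAM-NON arrays lay in row 1 and the Normal arrays in row 2, so that values under this block rest on STAM-INS 1, the only other array in row 1, and lost calls say nothing about stability. Srxn1 was 0.60 there (limma adjusted p = 0.529). The setting without the 3 arrays leaves STAM-NON 2 and STAM-INS 2 and 3, so its tests of STAM-NON assume that 1 mouse varies like the other groups.

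Scaling moved the balance of all tested probes in STAM-NON against Normal liver: 1655 were higher and 2565 lower in the main setting (median -0.13), against 2733 and 453 under E1A centring (0.18), 2093 and 1061 when the percentile was taken over detected probes (0.03), 1537 and 1425 with quantile normalisation (-0.04) and 1078 and 1951 with median centring (-0.29). For STAM-INS against Normal liver the splits were 1355 and 2292 in the main setting, 1501 and 710 under E1A centring, 1677 and 1300 when the percentile was taken over detected probes, 1328 and 1758 with quantile normalisation and 791 and 2009 with median centring.

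Some differences changed sign, and none of them passed the test. In STAM-NON against Normal liver, Txnrd1 was 0.03 with the percentile over detected probes, 0.18 with E1A centring, 0.09 with quantile normalisation and 0.16 without the 3 arrays. Osgin1 was 0.07 with E1A centring, 0.02 with quantile normalisation and 0.62 without the 3 arrays, and -0.66 to 0.08 with replicates left out. Nqo1, at 0.87 in the main setting, was -0.07 with the slide row block. Maff was 0.14 with E1A centring and 0.02 with the slide row block. The dimmer Hmox1 probe was -0.13 with median centring, -0.69 without the 3 arrays and -0.26 to 0.38 with replicates left out. In STAM-INS against STAM-NON liver, Nfe2l2 was -0.01 with normexp and with median centring, -0.03 with the percentile over detected probes, -0.14 with E1A centring, -0.05 with quantile normalisation, -0.12 with the slide row block, -0.08 without the 3 arrays and -0.10 to 0.09 with replicates left out. Nqo1 was -0.01, Osgin1 -0.01 with the percentile over detected probes, and with E1A centring Nqo1 was -0.12, Osgin1 -0.12, Srxn1 -0.02 and Keap1 -0.06. Osgin1 was -0.04 with quantile normalisation and Keap1 -0.01 with the slide row block. Without the 3 arrays Nqo1 was -0.11, Srxn1 -0.22, Osgin1 -0.82, Txnrd1 -0.11, Hmox1 0.59 and its dimmer probe 0.66. With replicates left out the ranges were -0.28 to 0.41 for Nqo1, -0.16 to 0.31 for Srxn1, -0.39 to 0.46 for Osgin1, -0.69 to 0.01 for Hmox1 and -0.52 to 0.13 for its dimmer probe. In STAM-INS against Normal liver Gclc was 0.06 with the percentile over detected probes, 0.1 with E1A centring, 0.14 with quantile normalisation and -0.27 to 0.16 with replicates left out, Txnrd1 was -0.13 with median centring and -0.05 to 0.15, Osgin1 -0.63 to 0.20, and the dimmer Hmox1 probe 0.03 with E1A centring and -0.31 to 0.04. The causes were not tested.

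Replicate numbers are shared between groups but did not pair the mice, as deviations of same-numbered mice from their group means correlated at -0.29 to 0.15 over 9 pairs. With the replicate number as a block, Srxn1 was 0.96 (limma adjusted p = 0.0452) in STAM-NON and 1.09 (limma adjusted p = 0.035) in STAM-INS against Normal liver, and all tested probes past the threshold went from 4220 to 2016 and from 3647 to 1872. The number of arrays, 3 per group, limits what can be detected.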
